A study of Danio rerio with 6 samples.

Results

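A stretch of zebrafish chromosome 7 held a run of transcript models that were several times brighter in embryos injected with a morpholino against nanog-like than in embryos injected with a control morpholino. The stretch was described through the 86 targets that the array design maps to chromosome 7 of assembly Zv7 with a start from 33000000 to 35000000, leaving out reverse-strand targets, of which the window held 0. These were 86 of the 1727 targets on chromosome 7 and of the 38489 on the array. A target is a set of probes that reports 1 transcript model. The interior, from 33.738 to 34.229 Mb and here called the core, held 27 targets, and the flanks held 59, with 28 before and 31 after it. The core was chosen by its log2 differences between these same arrays, so all differences between the groups given for its members are descriptions and carry no test.

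The arrays were hybridised with total RNA of sphere stage embryos, a blastula stage reached soon after the zygotic genome becomes active. In 3 arrays the embryos had received nanog-like-MO1, and the labels record a gastrulation defect for them. In the other 3 they had received control-MO, with a normal phenotype in the labels. A morpholino is a stable antisense oligonucleotide that blocks translation or splicing of a transcript, and the labels do not say which step this one blocks. No strain or number of embryos per culture is given in the labels, and both groups were raised in E3 fish water at 28 °C. The replicates come from separate cultures in the labels, 1 morpholino was used against nanog-like, and 3 arrays per group limit the precision.

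Nanog-like, now named nanog, is a homeobox transcription factor that the mother deposits in the zebrafish egg and that helps to switch on the first transcription of the embryo. It acts together with Pou5f3 and SoxB1 factors on early zygotic genes and is needed for the yolk syncytial layer. A transcript model is a transcript predicted on a genome assembly, and genes without an assigned function keep provisional LOC names.

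Values below are normalized intensities on the log2 scale unless another scale is named, and each set of 3 values lists replicates 1, 2 and 3. A difference is the mean of the nanog-like-MO1 arrays minus that of the control-MO arrays, with the standard error (SE) of the limma fit. A target was called higher or lower at an adjusted p under 0.05 over all 38489 targets. The targets of 6 of 8 listed blastula genes were found on the array, and 0 of them were called, with a median difference of -0.15. The nanog target itself differed by -0.02 (SE 0.10). Of 4 targets for genes of later tissues, 0 were called. In control-MO embryos 2 of them lay below the 25th percentile of all target means, 6.74. Over all targets 0.647% were called in either direction, so 0 calls among these few blastula and later-tissue targets say little.

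Within the core, 19 of 27 targets were called higher and 0 lower, where 0.257% of all targets were called higher, 0.39% lower and 0.647% in either direction. The core was bounded with the same contrast, so these shares are given only as the background. The median difference in the core was 2.83, against -0.01 over all targets. In the flanks 0 of 59 were called higher and 1 lower, with a median of 0.04. Without adjustment, p under 0.05 in that limma fit would mark 20 core targets as higher and 0 as lower, and 2 of 59 flank targets as higher and 4 as lower, where 5.3% of all targets pass as higher and 5.03% as lower. In 20 core targets every nanog-like-MO1 array lay above every control-MO array and in 0 below, where 7.36% of all targets lay above and 7.97% below. In the flanks 6 lay above and 5 below.

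The higher targets were not spread evenly through the core. They formed 2 blocks, named here after their values were seen, with 7 targets of near-zero difference between them. The interval between the blocks runs from the first to the last core target whose nanog-like-MO1 arrays did not all exceed every control-MO array. The blocks are the core targets before and after it. Separation of the groups in every block target therefore follows from this rule. The first block ran from 33.738 to 33.858 Mb, over 120.651 kb, and held 12 targets at 8 separate places, a place being a run of overlapping targets. The second block ran from 34.157 to 34.229 Mb, over 72.885 kb, and held 8 targets at 5 places. The gaps between neighbouring places measured 11.137 to 25.476 kb in the first block and 6.252 to 27.715 kb in the second. Median differences were 2.85 in the first block, 2.95 in the second and -0.05 in between.

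**Figure D1:**
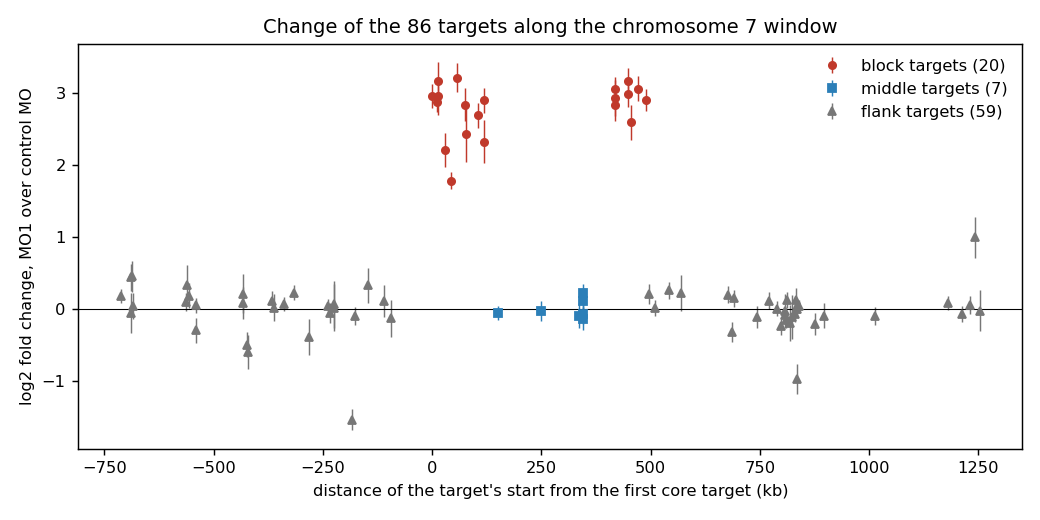
Log2 difference of each of the 86 window targets (vertical axis, nanog-like-MO1 minus control-MO, with the SE of the fit as bars) by position along the window. The 12 targets of the first block and the 8 of the second lie between 1.78 and 3.21, the 7 targets between the blocks between -0.13 and 0.23, and the flanks between -1.54 and 1.0.

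The first block opened with ENSDART00000059802, which has 6 probes and no symbol in the array design. It stood at 11.14, 11.44 and 11.28 on the nanog-like-MO1 arrays, against 8.33, 8.07 and 8.61 on the control-MO arrays, a difference of 2.95 (SE 0.16). Before normalization its mean probe intensities were 2381, 2685 and 2681 on the nanog-like-MO1 arrays and 371, 295 and 405 on the control-MO arrays. The groups lay apart in these deposited values as well.

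At the next place, from 33749979 to 33753252, 3 overlapping models share the design symbol LOC100001759. ENSDART00000059797 read 10.37, 10.62 and 10.65 in nanog-like-MO1 embryos and 7.54, 7.60 and 7.87 in control-MO embryos, a difference of 2.87 (SE 0.14). ENSDART00000059792 read 11.66, 11.51 and 11.55 in nanog-like-MO1 embryos and 8.51, 8.16 and 9.20 in control-MO embryos, and differed by 2.95 (SE 0.26). ENSDART00000059787 read 11.15, 11.54 and 11.34 in nanog-like-MO1 embryos and 8.05, 7.76 and 8.74 in control-MO embryos, and differed by 3.16 (SE 0.26). The 3 models overlap on the map, so they count as 1 place, and in all of them the lowest nanog-like-MO1 array exceeded the highest control-MO array by more than the spread inside either group.

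ENSDART00000059782 was the only target of either block with a description. The design calls it XR_029680.1 and similar to LOC562179 protein (LOC556356), and the Entrez number 562179 belongs to pimr145 in RefSeq's genes of assembly GRCz12tu, a gene of the pim-related kinase family that lies there on chromosome 10. Its levels were 9.72, 10.46 and 9.85 on the nanog-like-MO1 arrays and 7.56, 8.10 and 7.75 on the control-MO arrays, which differ by 2.21 (SE 0.24). Replicate 2 was the highest array of both groups for this target, and its call was lost without nanog-like-MO1 replicate 3, control-MO replicate 1 or control-MO replicate 3.

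ENSDART00000075621, a model without a symbol read by 3 probes, had the smallest difference of the 20 block targets in this fit. Its levels were 8.75, 8.59 and 8.57 in nanog-like-MO1 embryos and 6.81, 6.77 and 6.99 in control-MO embryos, 1.78 apart (SE 0.11). It was also the dimmest block target in both groups, and the offset of 50 added in the background correction compresses the differences of dim targets. With an offset of 16 it differed by 2.16 and without background correction by 1.45, still the smallest block difference in each. Why its difference was the smallest was not tested. In the authors' value table it differed by 2.88, and the smallest block difference there was that of ENSDART00000059782, at 2.39. The widest difference followed at the next place, ENSDART00000059775 (LOC556579), with 11.16, 11.36 and 11.47 in nanog-like-MO1 embryos, against 8.05, 7.80 and 8.52 in control-MO embryos. That difference of 3.21 (SE 0.20) is a 9.23-fold ratio, and the mean probe intensities before normalization were 2401, 2547 and 3045 on the nanog-like-MO1 arrays and 310, 252 and 386 on the control-MO arrays.

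The last 3 places of the first block held the 2 block targets with the widest control-MO spread, ENSDART00000075654 and ENSDART00000075658. ENSDART00000099495 was at 11.09, 10.95 and 11.14 in nanog-like-MO1 embryos and 8.24, 7.76 and 8.68 in control-MO embryos, 2.83 apart (SE 0.23). ENSDART00000075654, which overlaps it, was at 11.05, 11.18 and 11.14 in nanog-like-MO1 embryos and 8.10, 9.65 and 8.34 in control-MO embryos, 2.43 apart (SE 0.39), and was the single block target that was not called. The high array was control-MO replicate 2, where the coefficient of variation among its 4 probes was 1.23, against 0.26 and 0.38 on control-MO replicates 1 and 3. Without that array ENSDART00000075654 was called too, and in the authors' value table, which summarises the probes by RMA, its difference was 3.33.

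ENSDART00000099492 (LOC556287) stood at 11.25, 11.40 and 11.17 in nanog-like-MO1 embryos and at 8.24, 8.82 and 8.70 in control-MO embryos, a difference of 2.69 (SE 0.17). Its probes also varied most on control-MO replicate 2, with a coefficient of variation of 1.25, and its difference in the authors' value table was 3.42. At the last place of the block 2 models have the same coordinates and 3 probes each. ENSDART00000075658 read 11.43, 11.20 and 11.41 in nanog-like-MO1 embryos and 9.18, 9.54 and 8.34 in control-MO embryos, a difference of 2.32 (SE 0.30). ENSDART00000086283 read 10.25, 10.61 and 10.38 in nanog-like-MO1 embryos and 7.49, 7.26 and 7.81 in control-MO embryos, a difference of 2.89 (SE 0.18). The probes of ENSDART00000075658 had a coefficient of variation of 1.12 and 1.26 on control-MO replicates 1 and 2, against 0.29 on control-MO replicate 3, and its call was lost without any 1 of the 3 nanog-like-MO1 arrays or control-MO replicate 1. Its difference in the authors' value table was 3.53.

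Between the blocks the 7 targets belong to 4 places and were flat. ZV700S00002869 is described by the design as similar to VPS13C, a lipid transfer protein of organelle contacts, and averaged 6.11 in nanog-like-MO1 embryos and 6.16 in control-MO embryos. OTTDART00000025287, the target of uqcrfs1, which encodes the Rieske iron-sulfur subunit of mitochondrial complex III, lay well above the 25th percentile of target means in both groups. It read 11.57, 11.52 and 11.39 in nanog-like-MO1 embryos and 11.47, 11.74 and 11.34 in control-MO embryos, a difference of -0.03 (SE 0.13). The arrays of the groups overlapped.

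ENSDART00000076172, whose symbol LOC555755 is now itln4, an intelectin of the carbohydrate-binding lectins, read 6.94, 6.49 and 6.49 in nanog-like-MO1 embryos and 6.98, 6.59 and 6.60 in control-MO embryos, a difference of -0.09. The other 4 targets of the interval overlap each other and share the symbol LOC799640. ENSDART00000075692 read 6.59, 6.54 and 6.12 in nanog-like-MO1 embryos and 6.62, 6.65 and 6.37 in control-MO embryos, a difference of -0.13. ENSDART00000075699 read 6.64, 6.78 and 6.83 in nanog-like-MO1 embryos and 6.49, 6.72 and 6.37 in control-MO embryos, 0.23 apart. Apart from uqcrfs1, the 6 targets of the interval had means over all arrays below the 25th percentile of all target means, and a small difference could be compressed there. The dimmest were ZV700S00002869, with 4.32% of targets dimmer in nanog-like-MO1 embryos and 5.96% in control-MO embryos, and ENSDART00000075695, with 4.15% in nanog-like-MO1 embryos and 1.53% in control-MO embryos. ENSDART00000075695 and ENSDART00000075702 differed by 0.12 and -0.06.

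The second block began at 34156551 with 3 overlapping models of LOC100000627. ENSDART00000099435 read 11.17, 11.23 and 11.23 in nanog-like-MO1 embryos and 8.28, 7.82 and 8.39 in control-MO embryos, 3.05 apart (SE 0.16). ENSDART00000099429 read 11.37, 11.64 and 11.37 in nanog-like-MO1 embryos and 8.29, 8.21 and 9.10 in control-MO embryos, 2.93 apart (SE 0.25). ENSDART00000059805 read 10.58, 10.95 and 10.63 in nanog-like-MO1 embryos and 7.82, 7.54 and 8.31 in control-MO embryos, 2.83 apart (SE 0.22). Control-MO replicate 3 was the highest control array and control-MO replicate 2 the lowest for all 3.

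The next place held 2 models of LOC100000384. ENSDART00000099414 stood at 10.73, 10.93 and 10.86 in nanog-like-MO1 embryos, against 7.79, 7.55 and 8.24 in control-MO embryos, with a difference of 2.98 (SE 0.19). ENSDART00000075742 stood at 11.45, 11.58 and 11.51 in nanog-like-MO1 embryos, against 8.53, 7.96 and 8.58 in control-MO embryos, with a difference of 3.16 (SE 0.18). ENSDART00000075742 had the widest difference of the second block, and neither lost its call when any 1 array was left out.

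The last 3 models have no symbol. ENSDART00000057303, read by 11 probes, the most of any block target, was at 10.15, 10.68 and 10.66 in nanog-like-MO1 embryos and 8.15, 7.44 and 8.13 in control-MO embryos, a difference of 2.59 (SE 0.24). Its nanog-like-MO1 replicate 1 was low, and the call was lost without nanog-like-MO1 replicate 2 or 3. ENSDART00000086277 was at 10.83, 10.94 and 11.13 in nanog-like-MO1 embryos and 7.94, 7.60 and 8.19 in control-MO embryos, a difference of 3.06 (SE 0.17). ENSDART00000033689 was at 10.80, 10.86 and 10.49 in nanog-like-MO1 embryos and 7.92, 7.60 and 7.94 in control-MO embryos, a difference of 2.90 (SE 0.15). It ends the core, and the difference of the next target, gtf2a2, was 0.21.

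**Figure D2:**
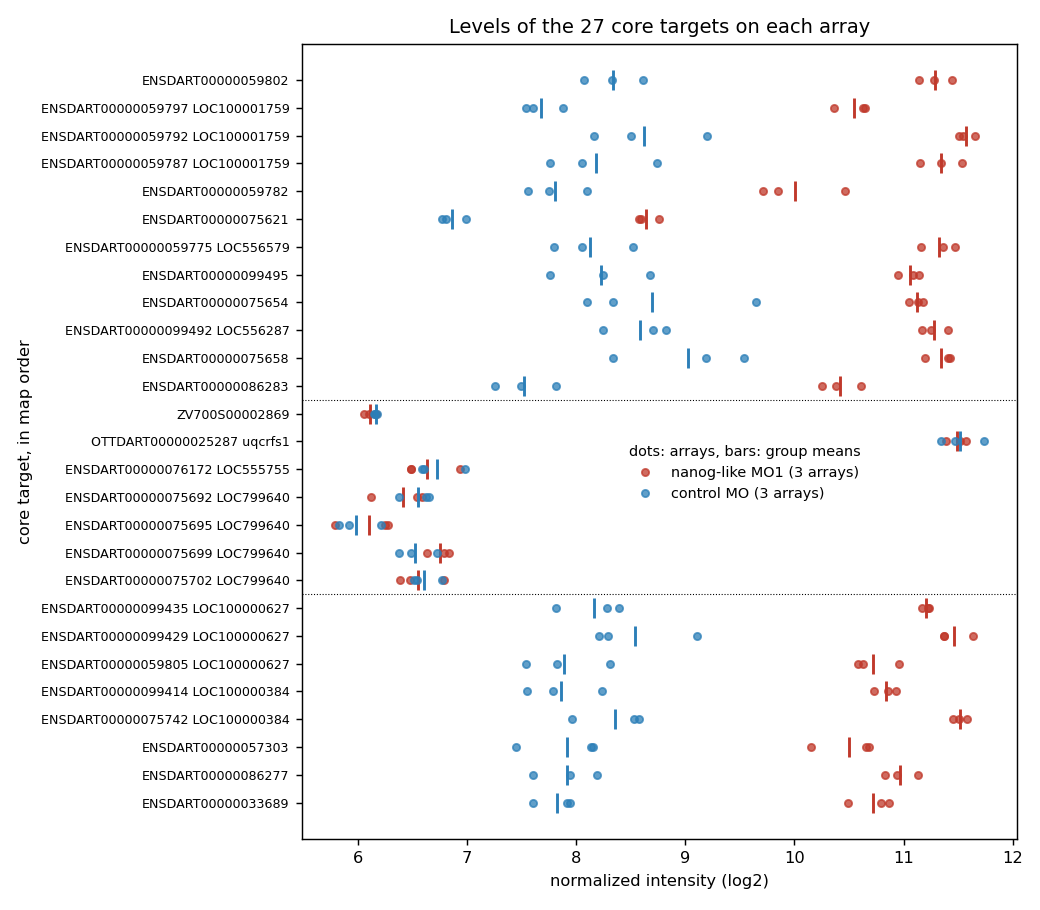
Normalized intensity (horizontal axis, log2) of the 27 core targets in map order, with a dot per array and a bar at each group's mean, red for nanog-like-MO1 and blue for control-MO. In all 20 block targets the red dots lie to the right of the blue ones, as the rule for the blocks requires. In the 7 targets between the dotted lines the dots of the groups overlap.

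Across the 20 block targets the levels of the nanog-like-MO1 arrays were alike, and those of the control-MO arrays less so. The median level was 11.07, 11.07 and 11.14 on the nanog-like-MO1 arrays and 8.07, 7.78 and 8.34 on the control-MO arrays. Group means ran from 8.64 to 11.57 in nanog-like-MO1 embryos and from 6.86 to 9.02 in control-MO embryos. Ranked among all targets, the median block target had 72.2% of targets dimmer in nanog-like-MO1 embryos and 45.2% in control-MO embryos. In control-MO embryos the blocks were therefore mid-range rather than at the bottom of the scale, and no detection calls were used here to say whether their signal exceeds background. The 7 targets between the blocks had medians of 6.54 in nanog-like-MO1 embryos and 6.55 in control-MO embryos, and the flanks 9.44 in nanog-like-MO1 embryos and 9.68 in control-MO embryos. In embryo RNA like this, more cells with a transcript and more transcript per cell cannot be told apart.

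Replicate spread in the blocks was the wider in control-MO embryos, which is given without a test. The median SD over the 3 replicates was 0.15 in nanog-like-MO1 embryos and 0.34 in control-MO embryos, and the control-MO SD was the larger in 18 of 20 block targets, or 90%. Over all targets the medians were 0.17 in nanog-like-MO1 embryos and 0.18 in control-MO embryos, and the control-MO SD was larger in 50.9%. In the flanks the medians were 0.14 in nanog-like-MO1 embryos and 0.19 in control-MO embryos, and the control-MO SD was larger in 37 of 59, or 62.7%. Between the blocks it was larger in 2 of 7, with medians of 0.21 in nanog-like-MO1 embryos and 0.18 in control-MO embryos. Block targets share places and arrays, so their count is not one of separate observations. Control-MO replicate 3 was the highest control array in 15 of the 20 block targets and control-MO replicate 2 the lowest in 15. Among the nanog-like-MO1 arrays, replicate 2 was the highest in 13 and replicate 1 the lowest in 13.

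Inside a group, the block targets tended to deviate from their group means together, though not in every pair. Pearson's r of these deviations over the 6 arrays had a median of 0.59 over 181 pairs of block targets at different places. The lower quartile of these pairs was -0.06, and 56.9% lay above 0.5. Over the 9 pairs at the same place the median was 0.81. Deviations were wider among the control-MO arrays, which therefore weigh more in r. The median was -0.35 between block targets and the 7 targets between the blocks, 0.06 between block and flank targets, and -0.02 among flank targets. Over chromosome 7 outside the window it was -0.0007, with 20.4% of pairs above 0.5. In the authors' value table the median for block targets at different places was 0.81, and -0.40 against the targets between the blocks. After centring on the array median these were 0.65 and -0.08. The median with that centring was 0.19 between block and flank targets, and 0.11 over chromosome 7 outside the window. All pairs share the same 6 arrays and their normalization, and may share probe targets, so these values describe the arrays.

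**Figure D3:**
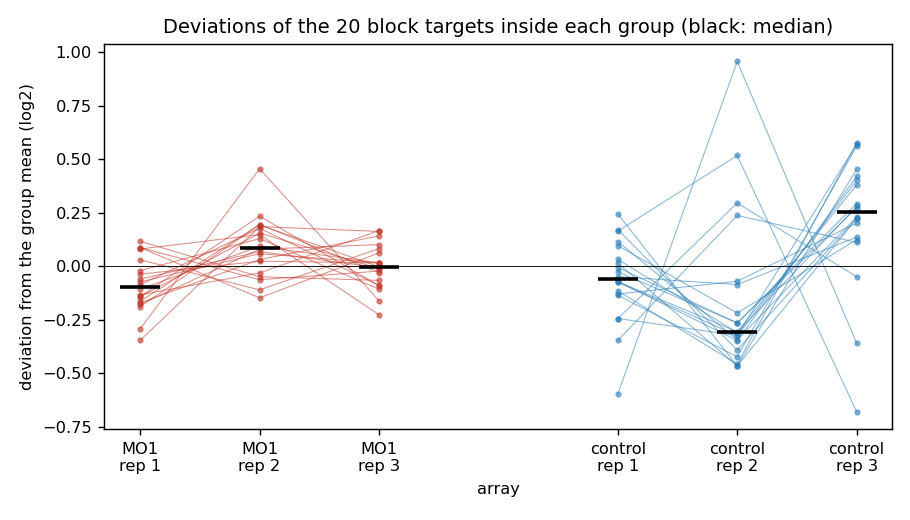
Deviation of each block target from its group mean (log2) on each of the 6 arrays, nanog-like-MO1 arrays first. The median deviation is -0.10, 0.09 and -0.01 on the nanog-like-MO1 arrays and -0.06, -0.31 and 0.25 on the control-MO arrays.

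The levels of the block targets were also compared between arrays. Over the 20 block targets, pairs of nanog-like-MO1 arrays correlated at 0.936 to 0.965, pairs of control-MO arrays at 0.440 to 0.750, and pairs of 1 array from each group at 0.517 to 0.903. Over the flanks the ranges were 0.988 to 0.993 for nanog-like-MO1 pairs and 0.982 to 0.990 for control-MO pairs. The blocks span a narrower range of levels than the flanks, and the targets are not independent of each other. The block targets include ENSDART00000075654 and ENSDART00000075658, whose probes varied widely on control-MO replicate 2. Ranges without these targets were not computed.

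The block targets shared features of design that the choice of members did not use. All 20 were Ensembl transcript models, as were 5 of the 7 targets between the blocks and 7 of the 59 flank targets. They had a median of 4 probes (range 3 to 11), against 12 for the flanks, 12 for all targets and 8 for all Ensembl models. Of the 20, 17 had 6 or fewer probes, or 85%, against 1.69% of the flanks, 14.4% of all targets and 28.1% of the 10153 Ensembl models on the array. None was read by 12 probes, the number that 56.8% of all targets had. All probes of all 20 passed the authors' filter on every array. The same held for 9650 of the 10153 Ensembl models and 56 of the 59 flank targets, so this was not particular to the blocks.

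They were also alike in length. Their span on the map had a median of 1376 bp, against 3988 bp in the flanks and 7701 bp over all Ensembl models. Of the 20, 17 spanned between 1 and 2 kb, as did 5 of 59 flank targets and 0 of the 7 between the blocks. Over all Ensembl models 1403 of 10153 did. Among the 20, the number of probes and the log2 difference had a Pearson's r of 0.01 and a Spearman's rho of 0.01, and the level in control-MO embryos and the difference had an r of 0.26 and a rho of 0.11. Both are descriptions over targets, which share places and arrays. Probe sequences were not used here, so whether the probes of different block targets match one another's transcripts, or other places in the genome, was not tested. The 20 targets at 13 places are therefore not given as 20 separate transcripts.

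**Figure D4:**
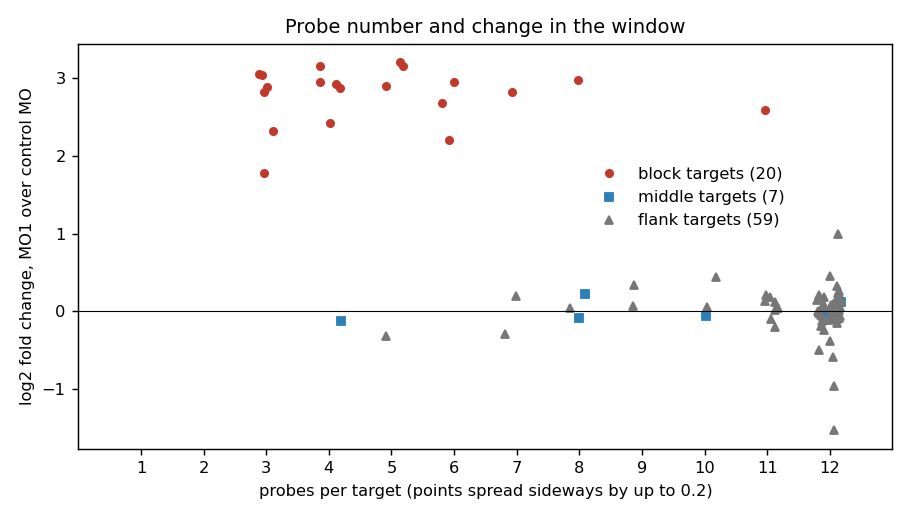
Log2 difference (vertical axis, nanog-like-MO1 minus control-MO) of the window targets by their number of probes (horizontal axis). The block targets lie at 3 to 11 probes with 17 of 20 at 6 or fewer, and 43 of the 59 flank targets lie at 12 probes.

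Names and descriptions gave little on what the block targets encode. Of the 20, 10 had a provisional LOC symbol, 9 had no symbol, and 1 had the description given above. The core held 9 distinct symbols, and 0 targets elsewhere on the array shared any of them or a core description. Related genes under other symbols or descriptions would not be counted in this way. Of the flank targets, 40 of 59 carried a description. None of the block LOC numbers was matched in the RefSeq table. In the gene order of assembly GRCz12tu, from which no coordinates were taken, the same neighbours lay in the opposite direction, with gtf2a2 first. Between gtf2a2 and LOC799640 that assembly lists 5 provisional protein-coding genes and foxb1b, a forkhead transcription factor gene. From LOC799640 on it lists itln4, anxa2b, rorab and vps13c, with 1 provisional protein-coding gene among them. Between vps13c and the tropomyosin gene tpma it lists 6 provisional protein-coding genes and tln2a, a talin gene of cell adhesion. The intervals with 5 and 6 provisional genes lie where the second and the first block lie on Zv7, and the interval with 1 lies between them. No identifier links those genes to the block targets. The gene uqcrfs1 is on chromosome 7 in that assembly but not among these neighbours.

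Immediately outside the core the targets were flat. Before it, the last was ZV700S00001618, starting at 33643650, with 9.44, 10.18 and 10.42 in nanog-like-MO1 embryos and 10.24, 9.97 and 10.21 in control-MO embryos. ZV700S00003434, similar to TPM3, a tropomyosin that binds actin filaments, had 10.82, 11.18 and 10.62 in nanog-like-MO1 embryos and 10.37, 11.06 and 10.84 in control-MO embryos. ZV700S00003454, similar to ISL2, a LIM homeobox factor, had 11.68, 11.62 and 10.95 in nanog-like-MO1 embryos and 11.40, 10.86 and 10.99 in control-MO embryos. Their differences were -0.13 (SE 0.26), 0.12 (SE 0.22) and 0.33 (SE 0.24), and the arrays of the groups overlapped in all 3. The median coefficient of variation among probes was 2.02 for ZV700S00003434 and 2.77 for ZV700S00003454. In the authors' value table their log2 levels were only 5.90 to 6.83 and 3.33 to 4.36. The levels of both therefore differ between the per-array intensities and that table, and the cause was not tested.

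After the core, gtf2a2 (NM_001020605), which encodes a subunit of the general transcription factor TFIIA, started at 34233564. Its levels were 11.09, 11.29 and 11.29 in nanog-like-MO1 embryos and 11.22, 10.79 and 11.04 in control-MO embryos. The cation channel gene trpm1a (NM_001080678) had 6.63, 6.69 and 6.55 in nanog-like-MO1 embryos and 6.67, 6.44 and 6.69 in control-MO embryos. The membrane traffic GTPase gene rab8b (NM_001099259) had 8.44, 8.41 and 8.62 in nanog-like-MO1 embryos and 8.10, 8.30 and 8.29 in control-MO embryos. Their differences were 0.21 (SE 0.14), 0.02 (SE 0.11) and 0.26 (SE 0.11), and rab8b was the only one of them whose groups did not overlap.

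The single called flank target ran against the blocks. OTTDART00000028449, from 33554206 to 33557172, is the target of rrad, which encodes a Ras-related GTP-binding protein. It stood at 7.71, 7.91 and 7.98 in nanog-like-MO1 embryos and at 9.26, 9.31 and 9.65 in control-MO embryos, a difference of -1.54 (SE 0.14). It lies before the first block, and its call was lost without nanog-like-MO1 replicate 2. The widest difference upward in the flanks was that of scube2 (NM_001014813), a secreted protein that helps to release Hedgehog ligands, near the far end of the window. It read 12.30, 11.89 and 11.90 in nanog-like-MO1 embryos and 11.58, 11.03 and 10.49 in control-MO embryos, 1.0 apart (SE 0.28), and was not called. Both it and the rbpms2b target below were singled out after their values were seen.

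The brightest flank targets hardly differed. OTTDART00000025291 of rbpms2b, which encodes an RNA-binding protein, read 14.22, 14.28 and 14.15 in nanog-like-MO1 embryos and 14.16, 14.21 and 14.13 in control-MO embryos. OTTDART00000025292, also of rbpms2b, read 13.44, 13.51 and 13.38 in nanog-like-MO1 embryos and 13.44, 13.38 and 13.38 in control-MO embryos. The amino acid transporter gene slc7a6 (NM_001020474) read 13.33, 13.43 and 13.39 in nanog-like-MO1 embryos and 13.60, 13.45 and 13.29 in control-MO embryos. The differences of these 3 were 0.05, 0.04 and -0.06, with overlapping groups. OTTDART00000025296 is another rbpms2b target, and its probes gave a different picture. It read 6.40, 6.66 and 6.59 in nanog-like-MO1 embryos and 7.94, 7.19 and 7.42 in control-MO embryos, a difference of -0.97 (SE 0.20), and was not called. Its mean in nanog-like-MO1 embryos, 6.55, lay below the 25th percentile of all target means, 6.74. The remaining rbpms2b targets of the window, OTTDART00000025289 and OTTDART00000025290, differed by -0.06 and 0.002, so OTTDART00000025296 stood apart from the others.

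In the authors' value table the contrast between blocks and flanks had the same form. Differences there ran from 2.39 to 3.65 in the 20 block targets, with a median of 3.41, and from -0.32 to 0.08 in the 7 targets between them. The flank median was 0.04 and that of all targets -0.03. The same 6 arrays underlie both sources, so the table is no separate measurement.

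**Figure D5:**
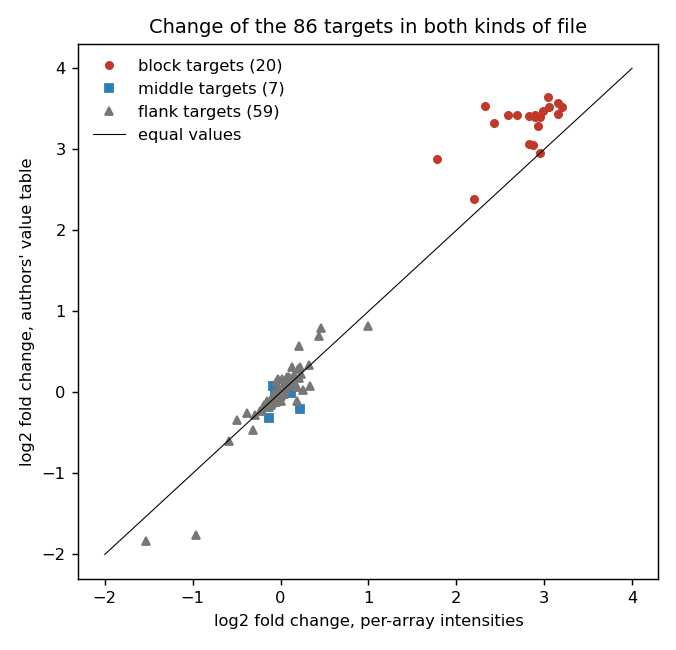
Log2 difference of each window target in the authors' value table (vertical axis) against that from the per-array intensities (horizontal axis), nanog-like-MO1 minus control-MO. The block targets lie at 1.78 to 3.21 on the horizontal axis and 2.39 to 3.65 on the vertical axis, apart from the other targets of the window.

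Other values differed between the groups along with the blocks. Of 6 listed genes of the yolk syncytial layer, the nuclear layer at the yolk surface that patterns the blastula, 2 were found, and both were called lower, with differences of -2.69 for mxtx2 and -3.00 for hnf4a. Their summed linear level was 461 to 1101 in nanog-like-MO1 embryos and 3325 to 5719 in control-MO embryos. Of 4 cell death and stress genes found of 6 listed, 1 was called higher, bbc3, a pro-apoptotic BH3-only gene, by 1.23, and 0 lower. Their summed linear level was 28296 to 32227 in nanog-like-MO1 embryos and 25291 to 27028 in control-MO embryos. Of 6 enveloping layer genes found of 9 listed and 4 germ plasm genes found of 5 listed, 0 were called. The median differences were 0.20 for the enveloping layer and 0.07 for the germ plasm. Enveloping layer differences ran from -0.62 (SE 0.29) for krt5 to 0.68 (SE 0.23) for cldnf. Over all targets 0.647% were called in either direction, so 0 calls in lists this short say little. The part of these genes in the rise of the block targets was not tested.

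The array numbers in the labels fall into ranges, 1 of which holds all 3 control-MO arrays and nanog-like-MO1 replicate 3. Within that range the median difference of the 20 block targets was 2.89, from 1.72 to 3.35, with 1 nanog-like-MO1 array and so no test. With the range as a term in the limma fit 0 core targets were called, against 20 higher at an unadjusted p under 0.05, and over all targets 0 were called, against 1904 higher and 1676 lower.

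Elsewhere on the array a few targets had almost the same profile over the 6 arrays as the mean of the 19 called core targets, which was 10.79, 10.97 and 10.88 in nanog-like-MO1 embryos and 8.04, 7.86 and 8.32 in control-MO embryos. The most alike was OTTDART00000008981 on chromosome 4, similar to AKR1B1, an aldose reductase, with a Pearson's r of 0.999 over 6 arrays and a difference of 1.19. ENSDART00000099037 (LOC559241) lies on chromosome 7 itself, from 38990421 to 38993531 and so outside the window, with an r of 0.998 and a difference of 2.74. ZV700S00003267 on chromosome 10 had an r of 0.996 and a difference of 2.17. OTTDART00000019164 (si:ch211-214c11.8) on chromosome 19 had an r of 0.995 and a difference of 2.33, and OTTDART00000030960 (si:dkey-119f1.1) on chromosome 2 an r of 0.995 and a difference of 0.69. A profile with 2 separate levels gives a high r to any target that differs in the same direction by much more than its replicate spread. The size of the difference does not enter r, so the r describes likeness of shape only.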

How the data were processed

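Total RNA was labelled with Cy3 and hybridised to 1-colour NimbleGen arrays, per the labels' protocols. The authors deposited, per the file headers, a linear intensity of every target averaged over its perfect-match probes, the counts of its probes and of those kept, and the ratio of SD to mean among them. These deposited intensities were not normalized between arrays: their medians were 474, 408 and 529 for nanog-like-MO1 replicates 1 to 3 and 460, 427 and 417 for control-MO replicates 1 to 3. A second deposited table holds linear intensities summarised by RMA, per the submitters' processing notes, with column medians from 179 to 200. Its scaling and centring beyond the name RMA stay unknown. What the authors' probe filter removed is not given in these sources.

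Here the intensities were background-corrected (normexp, offset 50), quantile normalized between arrays and taken to log2. The offset understates differences of dim targets. All 38489 targets were fitted in limma 3.58.1 under R 4.3.3 with group as the only term, 2-sided, with Benjamini-Hochberg adjustment over all targets. The RMA table served as an alternative, as did no background correction, an offset of 16, centring on the array median or on 7 of 12 listed reference genes, a filter on dim targets, a replicate block, the array number range and leaving out each array.

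Members and lists were chosen with earlier results of these data known. Targets named with values per array are the called core targets, the 3 other core targets with the largest difference and the 3 with the highest level, and, in the flanks, the called target, the 3 nearest on each side and the 3 brightest. The 5 most like targets outside the window are named too, and other core targets by their differences. Targets were named through the array design and a RefSeq gene table of assembly GRCz12tu, and positions are those of the design on Zv7.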

Additional observations from a re-analysis of the deposited data

How the results depend on the processing

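Of the 19 core targets called higher, all 19 were called again in the authors' value table, without background correction, with an offset of 16, after centring on the array median or on reference genes and after leaving out dim targets, and 17 with the replicate block. In total, 20 core targets were called in the authors' table, under both centrings and without dim targets. The core was bounded with the same contrast on the same arrays, so repeated calls of its members describe the processing only. With the array number range as a term 0 core targets, 0 flank targets and 0 of all targets were called in either direction, against 20 core targets higher at an unadjusted p under 0.05. That fit leaves 1 nanog-like-MO1 array in the range of the control-MO arrays. Leaving out 1 array at a time gave 16 to 20 higher core targets, the fewest without nanog-like-MO1 replicate 3 and the most without control-MO replicate 2, and 0 to 1 lower flank targets, 0 without nanog-like-MO1 replicate 2. Over all targets the same gave 35 to 66 that were higher and 60 to 119 that were lower (fewest without control-MO replicate 3), against 99 and 150 with all arrays. The authors' table called 163 targets higher, and the replicate block 46 higher and 88 lower. The deviations of same-numbered arrays correlated at -0.01, -0.10 and 0.17, and only for replicate 3 was the same number the best match. With 3 arrays per group these values do not settle whether replicate numbers pair the arrays. The core median difference was 3.33 in the authors' table, against 2.83. The flank median was -0.048 after median centring, 0.148 after centring on reference genes and -0.023 within the shared range, against 0.040 in the fit reported. These centrings moved the median of all targets to -0.10 and 0.10. The median level of the core targets minus that of the flank targets, each level a mean over the 6 arrays, was 0.84 in the authors' table and -0.21 otherwise, while the difference of the means over targets was -0.69 in the authors' table and -0.80 otherwise. The cause of these shifts was not tested. The targets that could be read as separate transcripts are limited by few probes per block target, and the precision by 3 arrays per group.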
